A study of Bos taurus with 12 samples.

Results

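Polycomb repressive complex 2 (PRC2) is described here through the transcripts of 10 of its genes in female and male bovine blastocysts. The genes are EZH1, EZH2, EED, SUZ12, RBBP4, RBBP7, JARID2, AEBP2, MTF2 and PHF19, taken by their symbols from a table of read counts for 32637 genes, and all 10 were found there. None of the 10 differed between the sexes past the threshold of the genome-wide test. The X-linked gene RBBP7 had a female-to-male fold of 1.38 that did not pass that threshold. Its count ratio to its autosomal paralog RBBP4 was higher in females in an exact permutation test over all 11 libraries. That call was lost in 8 of the 11 fits without 1 library. The ratio was also chosen with earlier results of these data known.

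The libraries came from expanded blastocysts of cattle (Bos taurus), which were produced in vitro from slaughterhouse oocytes and semen of bulls used in weekly rotation and were collected on days 7 and 8. No treatment, transgene or deletion was applied to either sex. There were 6 female and 5 male libraries, each a pool of 2 embryos that had been cut, with the remaining piece of each embryo sexed by PCR. Each piece held inner cell mass and trophectoderm, and in these bulk pools fewer cells of a type and less RNA per cell cannot be told apart. The pools were the replicates, and p-values measure the spread between pools.

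PRC2 is the enzyme complex that methylates lysine 27 of histone H3 (H3K27), a mark of silenced genes that in embryos covers many developmental regulators and the inactive X chromosome. Its catalytic subunit is EZH2 or the less active EZH1, which work only when joined to EED, a reader of the mark, and SUZ12, the scaffold, together with a histone-binding protein, RBBP4 or RBBP7. Accessory proteins define the forms of the complex, with JARID2 and AEBP2 in PRC2.2 and MTF2 or PHF19 in PRC2.1.

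The female libraries held 6664112 to 16162985 counts and the male libraries 9942952 to 21392764. XIST, the RNA that coats the inactive X chromosome, ranged from 52.3 to 261 CPM in the libraries labelled female and from 0.745 to 3.97 CPM in those labelled male, where CPM are counts divided by the library size after TMM scaling in edgeR. Male replicate 5 stood apart, with the most counts and the fewest genes detected, 14937 against 16985 to 18550 in females. All 7 markers of the inner cell mass and all 10 of the trophectoderm were counted in both sexes. The trophectoderm markers summed to between 7879 and 23154 CPM in females and between 9195 and 36145 CPM in males, with the highest sum in male replicate 5. The inner cell mass markers summed to between 562 and 981 CPM in females and between 844 and 1079 CPM in males. Hypoblast markers summed to between 228 and 621 CPM in females and between 208 and 467 CPM in males, with male replicate 5 lowest, and cumulus markers to no more than 32.7 CPM in any library, with 2 of the 7 cumulus genes at 0 in every male. The part of these markers in the results was not tested.

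All 10 PRC2 genes passed the filter on low counts and were among the 12802 genes tested with the quasi-likelihood test of edgeR, male against female, with a block for the library number, which is the first number in the name of each library and runs from 1 to 3. Calls needed an FDR (false discovery rate) under 0.1 together with a fold change over 1.5. No PRC2 gene was called, against 1.91% of all tested genes, with 1.5% of tested genes called as higher in females and 0.414% as higher in males. At an unadjusted p under 0.05 there was 1 PRC2 gene, RBBP7, against 13.2% of tested genes, and DESeq2 called 0 of the 10 with or without the library number. Positive values of the log2 fold change were higher in males, and 6 of the genes were above zero and 4 below. Their median log2 fold change was 0.05, beside 0.005 over all tested genes. The sexes overlapped in all 10 genes, while every female was above every male in 1.88% of tested genes and every male above every female in 1.43%.

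**Figure D1:**
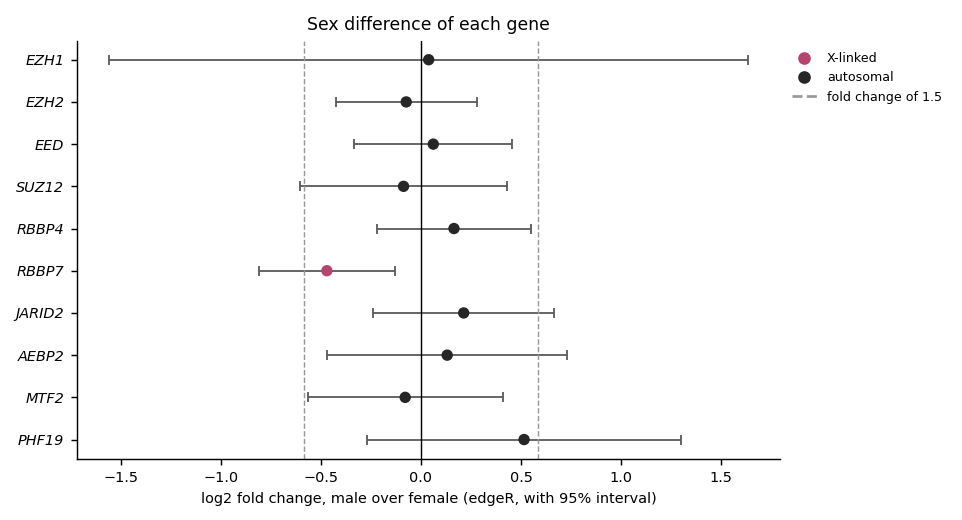
Log2 fold change between males and females for each PRC2 gene, with its 95% interval from edgeR, where positive values are higher in males and dashed lines mark a fold change of 1.5. The interval of RBBP7, the X-linked gene, runs from -0.81 to -0.13, and those of the 9 autosomal genes cross zero.

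A test that misses the threshold does not show that the sexes were equal, so the intervals are given. For EZH2, EED, RBBP4 and MTF2 the whole 95% interval lay within a fold change of 1.5 in either direction. For the other 6 genes it reached past that size on at least 1 side. In the edgeR fit, with sex and library number in the model, 8 of the 10 genes had a biological coefficient of variation under that of the median tested gene, 0.348. EZH1 and PHF19, the genes with the fewest counts, were the exceptions, at 0.787 and 0.411. This estimate is moderated across genes, and the genes were not matched on level. SUZ12 and AEBP2 had 0.289 and 0.328 by it, while the coefficients of variation of their male CPM were 51.2% and 62.6%.

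EZH2, the main methyltransferase of dividing cells, lies on chromosome 4 at 112024328 to 112081434 of the ARS-UCD2.0 assembly. It was counted at 47.0, 42.7, 46.1, 42.1, 56.8 and 45.7 CPM in female replicates 1 to 6 and at 47.2, 40.6, 39.6, 38.8 and 59.3 CPM in male replicates 1 to 5. Male replicates 2, 3 and 4 were just below every female and male replicate 5 was above them, and female replicate 5 was the highest of the females. The female mean was 46.7 ± 5.32 CPM (SD, n = 6) and the male mean 45.1 ± 8.62 CPM (SD, n = 5), or 41.5 ± 3.87 CPM (SD, n = 4) without replicate 5. In edgeR the log2 fold change was -0.07 with an SE of 0.16 (95% interval -0.43 to 0.28, FDR 0.894).

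EZH1, the paralog that is best known from cells that no longer divide, lies on chromosome 19 at 42754605 to 42786906. It was near the lower end of what these libraries could measure, with 10 to 80 counts in females and 1 to 45 in males. The levels were 0.762, 3.37, 5.81, 1.93, 1.6 and 0.818 CPM in females and 2.40, 1.80, 2.90, 3.10 and 0.0485 CPM in males. Male replicate 5, the deepest library, held 1 count, for which the exact Poisson 95% interval was 0.00123 to 0.270 CPM, while the other males held 17 or more. Such intervals cover counting error only, since the reads carried no molecular identifiers. The females spread 7.63-fold from lowest to highest. The log2 fold change in edgeR was 0.04 with an SE of 0.73, and its 95% interval, from -1.56 to 1.64, allows a change of more than 1.5-fold either way (FDR 0.990). The sign was not stable, and the value was -0.22 without the block and 0.32 without male replicate 5.

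The ratio of EZH2 to EZH1 counts was taken in each library, on a log2 scale with 0.5 added to each count. It needs no library size, but gene length was not corrected for, so it can be compared between libraries and does not say which gene was more abundant. The log2 ratios were 5.88, 3.64, 2.98, 4.40, 5.11 and 5.75 in females and 4.28, 4.46, 3.76, 3.63 and 9.67 in males. Male replicate 5 was far above all other pools, and the other males lay within the female range. The female mean was 4.63 ± 1.16 (SD, n = 6) and the male mean 5.16 ± 2.55 (SD, n = 5), a difference of 0.53 (two-sided exact permutation test, p = 0.788). Without male replicate 5 the difference was -0.60 (exact permutation test, p = 0.357).

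EED, which binds methylated H3K27 and stimulates the enzyme, lies on chromosome 29 at 9265439 to 9295990. Its levels were 71.2, 93.8, 87.1, 77.0, 109 and 76.4 CPM in females and 92.4, 68.6, 113, 101 and 69.2 CPM in males. Male replicates 2 and 5 were just below and male replicate 3 just above the female range. The female and male means were 85.8 ± 14.1 CPM (SD, n = 6) and 88.9 ± 19.8 CPM (SD, n = 5), and the log2 fold change in edgeR was 0.06 with an SE of 0.18 (95% interval -0.33 to 0.46, FDR 0.923).

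SUZ12, the scaffold to which the accessory proteins bind, lies on chromosome 19 at 18156522 to 18196245. It was counted at 160, 129, 190, 147, 159 and 140 CPM in females and at 181, 115, 261, 114 and 66.2 CPM in males. Male replicate 3 was above and male replicates 2, 4 and 5 were below every female, so that the coefficient of variation of the levels was 13.5% in females and 51.2% in males. Mean levels in females and males were 154 ± 20.8 CPM (SD, n = 6) and 147 ± 75.4 CPM (SD, n = 5). The log2 fold change in edgeR was -0.09 with an SE of 0.24 (95% interval -0.61 to 0.43, FDR 0.916), and it was 0.10 without male replicate 5.

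**Figure D2:**
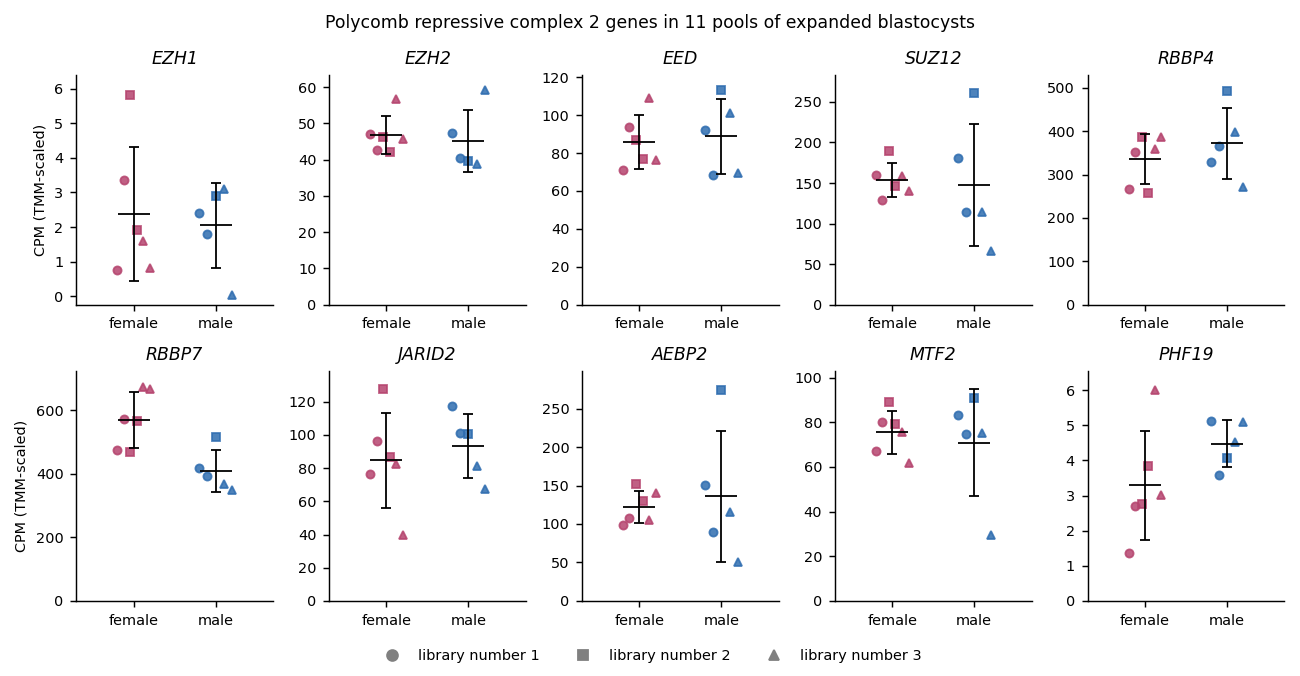
Levels of the PRC2 genes in TMM-scaled CPM, one point per pool, with the shape of the point giving the library number and bars giving the mean and SD of 6 female and 5 male pools. RBBP7 lies between 470 and 673 CPM in females and between 351 and 516 CPM in males, and the other genes overlap more widely.

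RBBP4 and RBBP7 are closely related histone-binding proteins that chromatin assembly factor and deacetylase complexes also use. RBBP7 is the only X-linked gene of the 10, on the X chromosome at 126676607 to 126698138. It was counted at 475, 572, 470, 566, 673 and 666 CPM in females and at 419, 393, 516, 368 and 351 CPM in males. Of the males, 4 were below every female, and male replicate 3 alone was within the female range, above female replicates 1 and 3. The female mean was 570 ± 88.1 CPM (SD, n = 6) and the male mean 409 ± 64.9 CPM (SD, n = 5), or 424 ± 64.6 CPM (SD, n = 4) without male replicate 5.

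The log2 fold change of RBBP7 in edgeR was -0.47 with an SE of 0.16 (95% interval -0.81 to -0.13). Its unadjusted p in this fit was 0.0109, and its FDR over all tested genes was 0.215, short of the threshold. The interval in folds, 0.570 to 0.914 of the female level in males, leaves out equal levels and holds changes both under and over 1.5-fold. Within library numbers 1, 2 and 3 the difference in mean log2 CPM was -0.36, -0.00 and -0.90, so the pools numbered 2, with 1 male, showed almost none. Over 20 alternatives the log2 fold change stayed between -0.63 and -0.39 and the FDR between 0.108 and 0.419.

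A lower level in males was common on this chromosome. The 476 tested X-linked genes had a median log2 fold change of -0.85, with 449 of them below zero, and the 12172 autosomal genes one of 0.02. The difference of RBBP7 was smaller than that of most X-linked genes, since 374 of the 476, or 78.6%, had a more negative value, and 62.8% of X-linked genes had an unadjusted p under 0.05. Within 1 Mb of RBBP7, 7 other genes were tested. Their log2 fold changes ran from -2.82 to 0.04, with a median of -0.70. Of these neighbours 6 were below zero, and 1, TXLNG, was called (log2 fold change -1.22, FDR 0.00557 in edgeR).

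**Figure D3:**
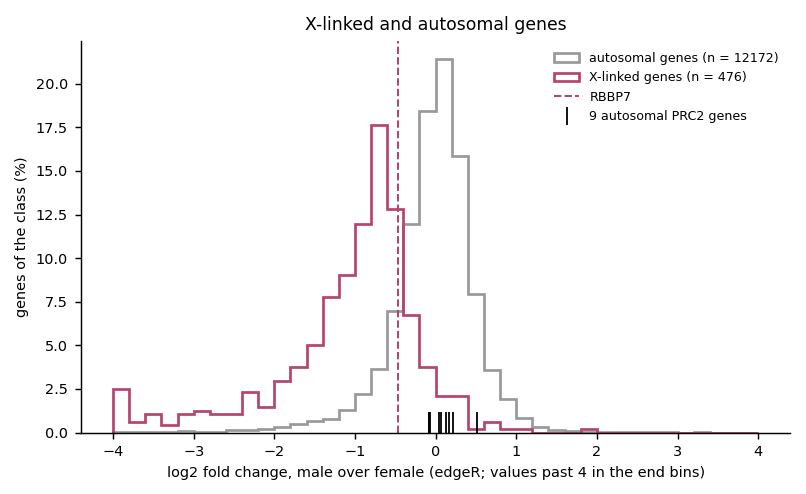
Log2 fold changes between males and females of 476 X-linked and 12172 autosomal genes, as the percentage of each class in bins, with values beyond the axis placed in the end bins. The dashed line marks RBBP7 at -0.47, to the right of the X-linked median of -0.85, and the ticks mark the 9 autosomal PRC2 genes, between -0.09 and 0.52.

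RBBP4, the autosomal paralog on chromosome 2 at 120969738 to 120986312, had a log2 fold change above zero. Its levels were 267, 352, 387, 258, 359 and 386 CPM in females and 330, 366, 494, 399 and 272 CPM in males. Male replicates 3 and 4 were above all females, and the others lay within their range. Averaged by sex, the levels were 335 ± 57.8 CPM (SD, n = 6) and 372 ± 82.8 CPM (SD, n = 5), with a log2 fold change in edgeR of 0.16 and an SE of 0.18 (95% interval -0.22 to 0.55, FDR 0.742). It was 0.0092 when male replicate 3 was left out and 0.28 when male replicate 5 was. The gene overlaps SYNC, which held 19 to 200 counts in a library against 1878 or more for RBBP4. The strand setting of the counting is not given in the sources used here, nor is the treatment of reads that match both paralogs, and such reads could affect RBBP4 and RBBP7 alike.

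The ratio of RBBP7 to RBBP4 counts was higher in females. It was 1.78, 1.63, 1.21, 2.19, 1.88 and 1.73 in female replicates 1 to 6 and 1.27, 1.07, 1.04, 0.923 and 1.29 in male replicates 1 to 5. Female replicate 3 was below male replicates 1 and 5, and the other 5 females were above every male. The female pools had a mean log2 ratio of 0.77 ± 0.28 (SD, n = 6) and the male pools one of 0.15 ± 0.20 (SD, n = 5). The difference of -0.62 had p = 0.00866 in an exact permutation test (two-sided, all assignments of the libraries to 6 and 5), and p = 0.0260 after adjustment over the 3 paralog ratios tested. The smallest p this design allows is 0.00216. The 3 ratios were chosen with earlier results of these data known, so this p is not that of a test fixed beforehand. Of the 476 tested X-linked genes, 449 were lower in males, and ratios of other X-linked genes to autosomal genes were not computed. The difference was -0.54, -0.64 and -0.72 within library numbers 1, 2 and 3. Without any 1 library the difference ranged from -0.72 to -0.55, with an unadjusted exact permutation p of at most 0.0238. Adjusted over the 3 ratios, the exact permutation p was then 0.0238 to 0.0714, and the call was lost in 8 of the 11 removals. It held without female replicate 3, male replicate 1 or male replicate 5.

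**Figure D4:**
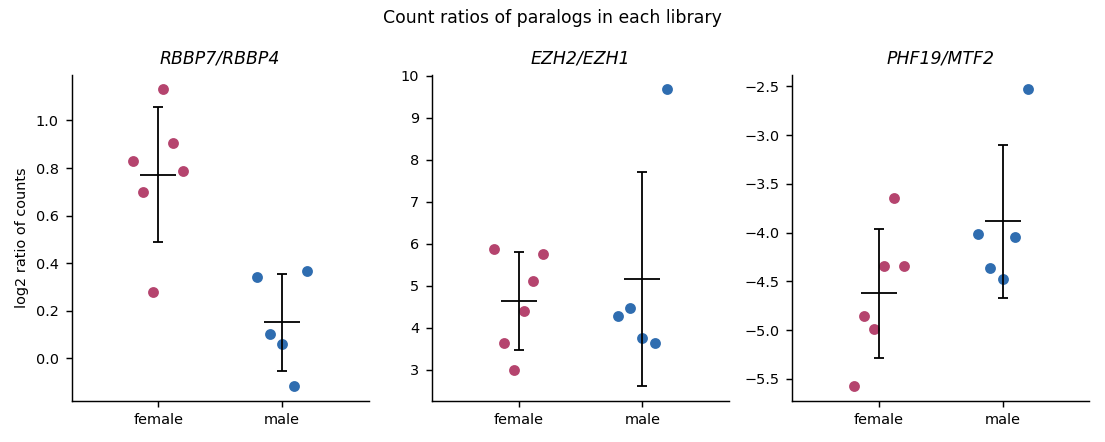
Log2 ratio of counts between paralogous PRC2 genes in each pool, with the mean and SD of 6 female and 5 male pools. The RBBP7/RBBP4 ratio is lower in males by 0.62, and the highest points of EZH2/EZH1 (9.67) and PHF19/MTF2 (-2.53) are both male replicate 5.

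JARID2, which helps recruit PRC2.2 and carries a jumonji domain without demethylase activity, lies on chromosome 23 at 41484698 to 41715733. It was counted at 76.3, 96.1, 128, 86.5, 82.6 and 39.6 CPM in females and at 117, 101, 100.4, 81.5 and 67.2 CPM in males. Female replicates 3 and 6 marked both ends of the range, and every male lay between them. In females and then males, the means were 84.8 ± 28.6 CPM (SD, n = 6) and 93.4 ± 19.3 CPM (SD, n = 5). The log2 fold change in edgeR was 0.21 with an SE of 0.21 (95% interval -0.24 to 0.66, FDR 0.714).

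AEBP2, the zinc-finger partner of JARID2 in PRC2.2, lies on chromosome 5 at 90468632 to 90530352. Its levels were 99.3, 108, 152, 130, 106 and 140 CPM in females and 151, 89.2, 274, 116 and 50.7 CPM in males. Male replicate 3, as for SUZ12, was above all females, male replicates 2 and 5 were below them, and the males spread 5.39-fold against 1.53-fold in females. The female and male means were 122 ± 21.1 CPM (SD, n = 6) and 136 ± 85.1 CPM (SD, n = 5). In edgeR the log2 fold change was 0.13 with an SE of 0.27 (95% interval -0.47 to 0.73, FDR 0.888), and it was -0.17 without male replicate 3 and 0.36 without male replicate 5.

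MTF2, a Polycomb-like protein that brings PRC2.1 to unmethylated CpG-rich DNA, lies on chromosome 3 at 50329930 to 50402928. It was counted at 67.0, 80.1, 89.0, 79.2, 75.5 and 61.9 CPM in females and at 83.3, 74.8, 91.0, 75.2 and 29.5 CPM in males. Male replicate 5 was far below every other pool, and the other males lay close to the females. The female mean was 75.5 ± 9.73 CPM (SD, n = 6) and the male mean 70.8 ± 24.0 CPM (SD, n = 5), or 81.1 ± 7.68 CPM (SD, n = 4) without male replicate 5. The log2 fold change in edgeR was -0.08 with an SE of 0.22 (95% interval -0.57 to 0.41, FDR 0.919), and it turned to 0.12 without male replicate 5.

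PHF19, the Polycomb-like paralog of MTF2, lies on chromosome 8 at 110240762 to 110261722 and had only 18 to 105 counts in a library. Its levels were 1.37, 2.71, 2.76, 3.85, 6.0 and 3.02 CPM in females and 5.13, 3.59, 4.06, 4.53 and 5.09 CPM in males. All 5 males were above the female median of 2.89 CPM, but female replicate 5 was above every male. Mean levels in females and males were 3.29 ± 1.55 CPM (SD, n = 6) and 4.48 ± 0.66 CPM (SD, n = 5). Of the 9 autosomal genes PHF19 had the largest log2 fold change, 0.52 with an SE of 0.36 (95% interval -0.27 to 1.30), and the smallest unadjusted p in edgeR, 0.178 (FDR 0.587).

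The log2 ratio of PHF19 to MTF2 counts was -5.57, -4.86, -4.99, -4.34, -3.64 and -4.34 in females and -4.01, -4.36, -4.48, -4.04 and -2.53 in males. The males overlapped the upper part of the female range, with male replicate 5 above all other pools. Averaged by sex, the levels were -4.62 ± 0.67 (SD, n = 6) and -3.88 ± 0.78 (SD, n = 5), and the difference of 0.74 was not past the threshold (two-sided exact permutation test, p = 0.123, or 0.185 adjusted over the 3 ratios). Without female replicate 5 the difference was 0.94 (exact permutation test, p = 0.0476 unadjusted and 0.0714 adjusted), and without male replicate 5 it was 0.40 (exact permutation test, p = 0.300).

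The pools differed from each other in several PRC2 genes at once. Of the 10 genes, 9 were above their own median over all libraries in male replicate 3, which held the highest level of 5 of them. In male replicate 5 only 2 were above their median, and 5 were at their lowest level of any pool (EZH1, SUZ12, AEBP2, RBBP7 and MTF2), while EZH2 was at its highest. The median deviation of the 10 genes from their mean log2 CPM was 0.38 in male replicate 3 and -0.41 in male replicate 5. In females it lay between -0.21 and 0.25, in replicates 1 and 3. Male replicates 3 and 5 also held the lowest and the highest summed trophectoderm markers among males, 9195 and 36145 CPM, and female replicates 3 and 1 the lowest and highest among females, 7879 and 23154 CPM. Inner cell mass markers were nearly equal in male replicates 3 and 5, at 898 and 896 CPM, and were 981 and 599 CPM in female replicates 3 and 1. Hypoblast markers were 467 and 208 CPM in male replicates 3 and 5, and 621 and 273 CPM in female replicates 3 and 1. Whether the makeup of the pools had a part in the deviations of the PRC2 genes was not tested.

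**Figure D5:**
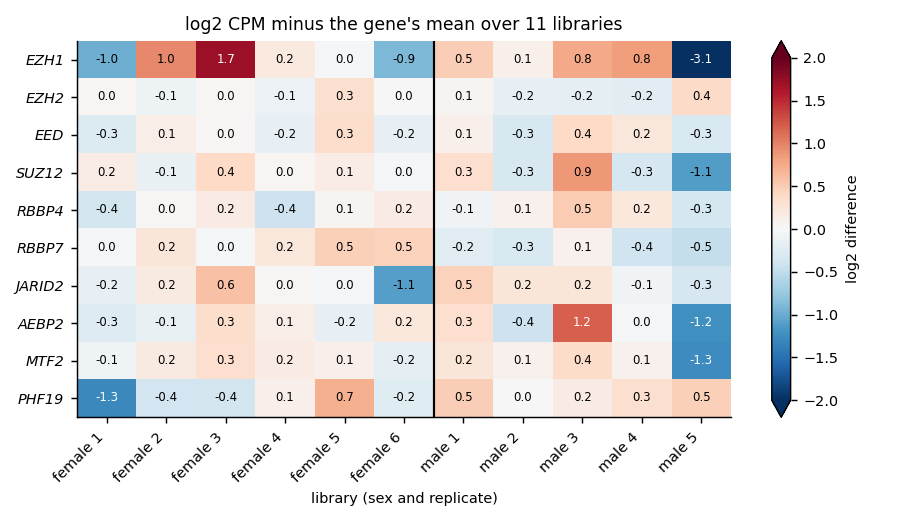
Log2 CPM of each PRC2 gene minus its mean over the 11 libraries, with red above and blue below the mean and the colour scale ending at 2 on either side. Male replicate 3 is mostly red and male replicate 5 mostly blue, except for EZH2 and PHF19, which are above their mean there.

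The library number, tested in the same edgeR fit with sex in the model, called none of the 10 PRC2 genes at an FDR under 0.1, against 0.00781% of tested genes, or 1 gene. At an unadjusted p under 0.05 there was 1 PRC2 gene, JARID2, against 6.93% of tested genes. Its p in this edgeR fit was 0.0482 and its FDR 0.693. The log2 difference of JARID2 between libraries numbered 3 and those numbered 1 was -0.53. Within each library number the sign of the sex difference was the same in all 3 numbers for 3 genes. The share of all tested genes with the same sign was not computed, so this count is not read as a result. The 3 were EZH2 (-0.03, -0.15 and -0.09), RBBP7 (-0.36, -0.00046 and -0.90) and PHF19 (1.09, 0.30 and 0.16). For RBBP7 the value in number 2 was almost zero. SUZ12 and AEBP2 turned from higher in males in number 2, at 0.64 and 0.96, to lower in number 3, at -0.78 and -0.66. The male of number 2 was replicate 3, and those of number 3 were replicates 4 and 5.

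Beyond the complex, 52 genes of the Polycomb system and of the other complexes of RBBP4 and RBBP7 were listed, and 50 were tested. The gene called among them was KDM6A, and it was higher in females. UTY, a listed Y-linked relative of KDM6A, was not analysed here, and ASXL3, with at most 8 counts in a library, did not pass the filter. KDM6A is an X-linked demethylase that removes the mark PRC2 writes, on the X chromosome at 98634477 to 98814039. Its levels were 62.1, 72.4, 96.9, 76.5, 64.6 and 48.0 CPM in females and 32.8, 35.4, 50.3, 23.4 and 8.53 CPM in males. Male replicate 3 was above female replicate 6, and otherwise every male was below every female. In females and then males, the means were 70.1 ± 16.4 CPM (SD, n = 6) and 30.1 ± 15.4 CPM (SD, n = 5), and the log2 fold change in edgeR was -1.24 with an SE of 0.27 (95% interval -1.83 to -0.65, FDR 0.0579). The call was lost in 8 of 20 alternatives, in which the log2 fold change was between -1.40 and -1.10 and the FDR between 0.0579 and 0.145, while over all 20 the FDR ran from 1.77e-05 to 0.145. The other listed H3K27 demethylase, the autosomal gene KDM6B, had a log2 fold change of 0.18 (FDR 0.883 in edgeR).

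The other lists held no called gene. The other accessory proteins of PRC2 were 5 tested genes with a median log2 fold change of -0.13, among them the X-linked PRC2 inhibitor EZHIP at 0.10 with an SE of 1.11. Canonical PRC1, which binds the mark of PRC2 through its CBX proteins, had 13 tested genes with a median of -0.10, and variant PRC1, which ubiquitinates histone H2A, had 12 with a median of -0.03. The 5 tested genes of PR-DUB, which removes that ubiquitin, had a median of 0.18. The 13 other partners of RBBP4 and RBBP7 had a median of 0.13. The 46 tested autosomal genes of the lists included no call, beside 0.707% of all tested autosomal genes, and the 4 X-linked ones, KDM6A, BCOR, BCORL1 and EZHIP, included 1, beside 27.9% of all tested X-linked genes. The 1 call among 50 is read against the 1.91% of all tested genes. At an unadjusted p under 0.05 there were 4 of the 50, against 13.2% of all tested genes. These were KDM6A, the PRC2 accessory gene LCOR (log2 fold change -0.51), the corepressor gene SIN3A (-0.63) and the deacetylase gene HDAC2 (0.41), and of them only KDM6A passed the threshold in edgeR.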

How the data were processed

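RNA-seq libraries of 6 female and 5 male pools of expanded blastocysts were analysed, and a mixed-sex Iso-seq sample was not used. The authors made full-length cDNA with the SMART-Seq HT PLUS kit and used fastp 0.20.0 for trimming, STAR 2.7.10b for alignment to ARS-UCD2.0 with at most 3 mismatches, and featureCounts 2.0.3 for counting. The deposited values are raw counts per gene. Of 32637 symbols, 30217 matched a RefSeq gene of that assembly, which gave coordinates. Exon lengths and sequences were not used here, so levels are compared between libraries and not between genes.

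The sex test was run in edgeR 4.0.16 under R 4.3.3 (filterByExpr by sex, TMM factors, quasi-likelihood test, Benjamini-Hochberg over 12802 genes). The model held sex and the library number, since the labels give no collection week. Nothing says that this number stands for the week. The SE is the log2 fold change divided by the square root of F, with 7 residual degrees of freedom among libraries. Log2 CPM used a prior count of 2. Permutation tests went through every assignment of the libraries with numpy 2.4.6 and pandas 2.3.3 under python 3.11.15. The permutation code was checked against scipy 1.17.1 on random numbers, and scipy gave the Poisson intervals. The methods were tested on simulated data.

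The genes, lists and ratios were chosen with earlier results of these data known. All 10 PRC2 genes are named, and of the other lists the called genes; TXLNG, LCOR, SIN3A, HDAC2, KDM6B and the X-linked list genes were named after their values were seen. TDGF1 was matched as CRIPTO. Within each sex no libraries were copies of each other (Pearson's r of 0.861 to 0.963 over log2 CPM of the tested genes, which are not independent replicates). Alternatives were fits without the block or with the title's replicate number as a block, DESeq2 1.42.0, other factors, filters and thresholds, and fits without each library.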

Additional observations from a re-analysis of the deposited data

Results flagged for a closer look

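Each PRC2 gene and each paralog ratio in each sex gave 26 groups of values. In 4 of them a pool had a gap to its nearest neighbour past Dixon's 95% critical value, where chance flags about 1 in 20 groups. The groups are not independent, since they share pools and the ratios reuse the counts of the genes, so the 4 flags are not separate findings. EZH2 was 56.8 CPM in female replicate 5, with a gap of 0.668 of the range of the 6 females. MTF2 was 29.5 CPM in male replicate 5, with a gap of 0.737 of the range of the 5 males. In the same pool the log2 ratio of EZH2 to EZH1 was 9.67, with a gap of 0.863 and an EZH1 count of 1, and the log2 ratio of PHF19 to MTF2 was -2.53, with a gap of 0.760.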

How the results depend on the processing

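No PRC2 gene was called in any of the 20 alternatives. The alternative at an FDR under 0.05 is the main fit at a stricter threshold, so it could call none. The difference in the RBBP7/RBBP4 ratio kept its direction in all 13 alternatives for that ratio. Its unadjusted p stayed under 0.05 in all 13, but its p adjusted over the 3 ratios was over 0.05 in 8 of the 11 fits without 1 library (differences of -0.72 to -0.55, adjusted exact permutation p up to 0.0714). The replicate numbers gave no clear pairing of the samples, and neither did the library number used as the block. Deviations of pools with the same title number correlated between -0.111 and 0.351 (5 pairs, median 0.028), against -0.297 to 0.279 for other pairs. For pools with the same library number the range was -0.111 to 0.351 (10 pairs, median 0.0005), against -0.297 to 0.245 for other pairs. With the title's number as a replicate block the log2 fold change was -0.58 for EZH1, -0.0092 for JARID2 and -0.0036 for AEBP2, all reversed, and 132 of all genes were called in place of 245. With no replicate block EZH1 was -0.22, and 326 of all genes were called in place of 245. In that fit 0 of the 50 listed companion genes were called in place of 1. That count was also 0 at an FDR under 0.05, and 0 to 1 without 1 library (0 without female replicates 2, 5 or 6 or male replicates 1, 2 or 3). EZH1 was -0.21 in DESeq2 with sex alone. Without 1 library the range was -0.82 to 0.41 for EZH1, -0.078 to 0.17 for EED, -0.35 to 0.10 for SUZ12, -0.17 to 0.36 for AEBP2, -0.24 to 0.12 for MTF2, 0.0092 to 0.28 for RBBP4, 0.058 to 0.38 for JARID2, 0.31 to 0.75 for PHF19, -0.60 to 0.91 for EZH2/EZH1 and 0.40 to 0.94 for PHF19/MTF2. With the mean of each library number removed, PHF19/MTF2 was 0.68 (exact permutation test, p = 0.0498 unadjusted and 0.0747 adjusted). When all genes with a count were tested, 1 PRC2 gene, AEBP2, was called across library numbers (FDR 0.0475 in edgeR), as were 658 of all genes. Counts of all genes called by sex were 655 and 739 in DESeq2, 743 with all genes that had a count, 125 at an FDR under 0.05, and 95 (without male replicate 3) to 364 (without male replicate 5) without 1 library. The cause of these changes was not tested. EZH1 and PHF19 had 1 to 105 counts in a library, and the lowest, for EZH1, was in the deepest library.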
